A study of Homo sapiens with 12 samples.

Results

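Cells take up and make small organic solutes to hold their volume when the medium turns hypertonic, and a set of 9 genes of that machinery was followed here through BCPAP cells, a line from a human papillary thyroid carcinoma. The set holds the myo-inositol transporter SLC5A3, the betaine and GABA transporter SLC6A12, the taurine transporter SLC6A6, the neutral amino acid transporter SLC38A2, aldose reductase AKR1B1, which makes sorbitol from glucose, the tonicity-responsive transcription factor NFAT5, the Hsp110-family chaperone HSPA4L, the calcium-binding protein S100A4 and the volume-sensitive kinase SGK1. They are 9 of the 58735 genes in the table, chosen by name from a list drawn up after their values in these libraries were known, so their fall in hypoxia and their spread among the normoxic control libraries are given as descriptions with no test. The difference between the siRNAs at 1% oxygen was not used to choose them and was tested.

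NFAT5 is known to move into the nucleus and to rise in amount in hypertonic medium, where it binds tonicity-responsive elements and turns on the osmolyte transporters and aldose reductase. The pathway is best described in kidney medulla cells, which live in a hypertonic surrounding, and the same genes work at lower levels in most other cells. SGK1 and SLC38A2 also answer to other inputs, glucocorticoids and serum for SGK1 and amino acid shortage for SLC38A2.

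The series holds 12 RNA-seq libraries in 4 groups of 3. BCPAP cells received siRNA against NOX4 (siNOX4), the NADPH oxidase that gives off hydrogen peroxide, or a scrambled siRNA (siControl), and were kept at 1% oxygen (hypoxia) or 20% oxygen (normoxia), which gives siNOX4 at 1%, siControl at 1%, siNOX4 at 20% and siControl at 20% oxygen. All groups share the serum-containing DMEM and the transfection, each replicate is said to be a transfection of its own, and the sources used here do not say how long hypoxia lasted. No group was exposed to a hypertonic medium according to the labels.

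Depth ran between 16559386 and 21282835 counts per library. NOX4 itself was near the floor, with 4, 3 and 4 counts in siNOX4 against 17, 8 and 13 counts in siControl cells at 1% oxygen, and 1, 5 and 3 counts in siNOX4 against 8, 13 and 6 counts in siControl cells at 20% oxygen. Of 8 thyroid markers the factors PAX8, NKX2-1, FOXE1 and HHEX were above 1 CPM (counts scaled to the size of the library, with TMM factors) and TG, TSHR and SLC5A5 were at or near 0. The libraries labelled siControl normoxia replicates 1 and 3 stood apart from replicate 2, with PAX8 at 1735 and 1640 CPM against 533 CPM, NKX2-1 at 43.3 and 46.9 CPM against 136 CPM, and the kidney and thyroid cadherin CDH16 at 156 and 132 CPM against 4.45 CPM. The summed level of 7 kidney tubule markers ranged between 3.34 and 5.35 CPM in siNOX4 hypoxia, 3.37 and 5.28 CPM in siControl hypoxia, 4.86 and 5.98 CPM in siNOX4 normoxia, and 6.00 and 160.1 CPM in siControl normoxia, and UMOD had no count in any library. CDH16 made up nearly all of the highest sum, with CUBN next at 3.19 CPM, and LRP2 was lower in replicates 1 and 3 (0.059 and 0.0609 CPM) than in replicate 2 (0.433 CPM). Markers of other cell types differed in both directions. In siControl normoxia replicates 1 and 3 the endothelial marker PECAM1 was at 30.6 and 22.2 CPM, against 2.66 CPM in replicate 2. TIE1, also endothelial, was at 11.2 and 15.35 CPM against 26.85 CPM. The fibroblast marker COL3A1 was at 10.6 and 11.4 CPM against 0 CPM, and THY1 at 88.1 and 75.5 CPM against 81.8 CPM. Whether the labels of these 2 libraries are right was not tested, and every siControl normoxia value rests on those labels. The part of these markers in the results below was not tested. Each member's log2 fold change of hypoxia in siControl cells is given with and without these 2 libraries. Some other results that rest on them are given with all libraries only.

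Promoter windows were read from RefSeq (GRCh38.p14), each with 250 bases before and 50 after an annotated start, and 6 of the 9 genes matched, with 11 windows in all. The sequences are shown because NFAT5, like other proteins with a Rel-type DNA-binding domain, contacts GGAAA, and capitals mark GGAAA on either strand (TTTCC on the printed strand). The windows of SLC5A3, AKR1B1 and SLC38A2 are those of 3 members that were lower in hypoxia, and the HSPA4L window belongs to the member that was not. All run 5′ to 3′ on the gene's strand: SLC5A3 at chr21:34073328-34073627 (plus strand), AKR1B1 at chr7:134459051-134459350 (minus strand), SLC38A2 at chr12:46372724-46373023 (minus strand) and HSPA4L at chr4:127783273-127783572 (plus strand, one of its 3 windows).
SLC5A3: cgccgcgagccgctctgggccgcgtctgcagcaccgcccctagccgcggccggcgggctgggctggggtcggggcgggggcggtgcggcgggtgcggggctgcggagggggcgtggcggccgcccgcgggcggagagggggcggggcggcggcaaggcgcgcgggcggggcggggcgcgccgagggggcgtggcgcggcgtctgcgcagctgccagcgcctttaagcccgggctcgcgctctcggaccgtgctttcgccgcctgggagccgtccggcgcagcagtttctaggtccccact
AKR1B1: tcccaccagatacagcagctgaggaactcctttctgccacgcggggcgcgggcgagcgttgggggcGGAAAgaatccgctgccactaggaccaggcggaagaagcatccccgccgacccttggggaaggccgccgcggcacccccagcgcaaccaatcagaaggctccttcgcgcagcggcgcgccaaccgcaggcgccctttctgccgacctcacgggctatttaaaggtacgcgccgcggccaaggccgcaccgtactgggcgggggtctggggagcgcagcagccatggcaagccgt
SLC38A2: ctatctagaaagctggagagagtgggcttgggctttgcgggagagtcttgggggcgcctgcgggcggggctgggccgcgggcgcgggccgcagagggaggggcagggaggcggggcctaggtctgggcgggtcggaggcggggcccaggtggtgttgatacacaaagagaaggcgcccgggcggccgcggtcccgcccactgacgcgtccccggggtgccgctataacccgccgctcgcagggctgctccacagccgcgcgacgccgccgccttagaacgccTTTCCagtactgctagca
HSPA4L: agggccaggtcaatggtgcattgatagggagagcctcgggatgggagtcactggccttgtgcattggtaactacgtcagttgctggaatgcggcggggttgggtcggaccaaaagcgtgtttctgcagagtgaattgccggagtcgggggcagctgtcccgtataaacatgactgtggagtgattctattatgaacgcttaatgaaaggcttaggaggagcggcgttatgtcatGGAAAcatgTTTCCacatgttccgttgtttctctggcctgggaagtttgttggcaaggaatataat
The SLC5A3 window held no GGAAA, nor did that of S100A4 or an SGK1 window (chr6:134174817-134175116), which are not printed. The printed AKR1B1 window held 1, which lay 184 bases before its start. The other AKR1B1 window (chr7:134459190-134459489, not printed) held that same GGAAA, 45 bases before its own start. It held another on the opposite strand, 113 bases before that start. The longer TGGAAA lay once in the SLC38A2 window, 33 bases into the transcript on the strand opposite to the printed one. In the printed HSPA4L window it lay on both strands, with first bases 17 and 7 bases before the start. Another HSPA4L window (chr4:127782072-127782371, not printed) held TGGAAA on the opposite strand, 181 bases before its start. Of the 11 windows, only that of SLC38A2 and the printed one of HSPA4L matched the tonicity-responsive element consensus by name. That consensus contains TGGAAA and so overlaps it. Of all 35116 windows in the table, 61.2% held GGAAA, 20.7% TGGAAA and 4.92% the full consensus, on either strand. A match is a string of letters in a window and not a bound site.

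SLC5A3, the sodium-coupled myo-inositol transporter (chr21:34073570-34106262), was the member with the steepest fall in hypoxia in siNOX4 cells. It was at 107, 89.2 and 85.6 CPM in siNOX4 hypoxia and 81.7, 83.8 and 109 CPM in siControl hypoxia, against 578, 558 and 620 CPM in siNOX4 normoxia and 5106, 624 and 5290 CPM in siControl normoxia, replicates 1 to 3. The 6 hypoxic libraries lay below all 6 normoxic ones, and the 2 outlying normoxic control libraries were 8.18 and 8.48 times replicate 2. The log2 fold change of hypoxia over normoxia was -2.65 (SE 0.10) in siNOX4 cells and -5.33 (SE 0.60) in siControl cells, or -2.77 (SE 0.12) without siControl normoxia replicates 1 and 3. Here and for the other members, values without these libraries are set against replicate 2 alone. In bulk RNA, fewer cells that express a gene and less of its RNA per cell cannot be told apart. With replicates 1 and 3 left out, the fall in siNOX4 cells differed from that in siControl cells by 0.13 (SE 0.16), against 2.69 (SE 0.73) with all libraries.

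SLC5A3 shares its start with MRPS6, a mitochondrial ribosomal protein gene on the same strand. The first exon of SLC5A3 (34073570 to 34073745) lies inside a first exon of MRPS6 (34073523 to 34073745), and 273 of the 11576 exonic bases of SLC5A3 are exonic in MRPS6 too. MRPS6 ran at 28.7, 38.3 and 34.3 CPM in siNOX4 hypoxia and 34.4, 39.6 and 41.9 CPM in siControl hypoxia, against 195, 192 and 171 CPM in siNOX4 normoxia and 1104, 181 and 1169 CPM in siControl normoxia. MRPS6, like SLC5A3, was lowest in the 6 hypoxic libraries and highest in siControl normoxia replicates 1 and 3, while the ratio of SLC5A3 to MRPS6 counts ranged between 2.12 and 4.63 over the 12 libraries. The sources used here do not say how reads in the shared exon were assigned, and 2.36% of the exonic length of SLC5A3 is affected.

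**Figure D1:**
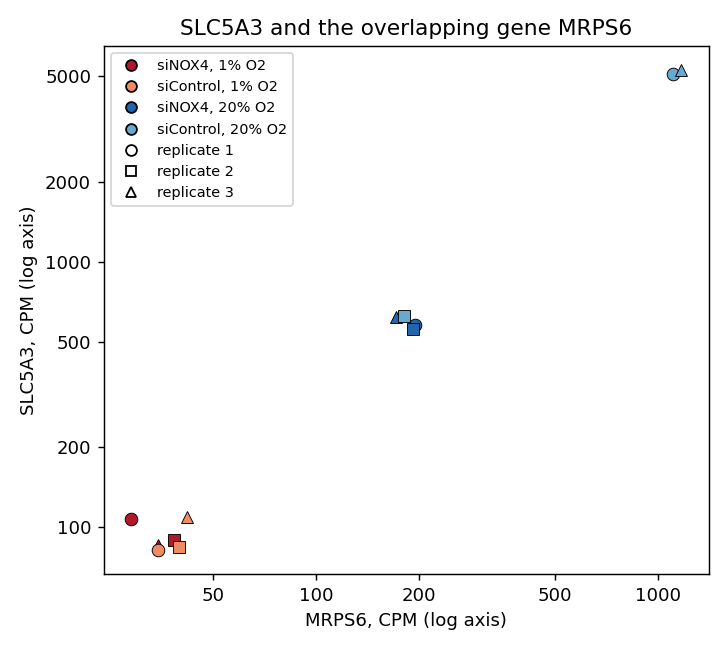
CPM of SLC5A3 (vertical, log axis) against CPM of MRPS6 (horizontal, log axis), one point per library, coloured by group and shaped by replicate. The 6 hypoxic libraries lie at or below 109 CPM for SLC5A3 and 41.9 CPM for MRPS6, 4 normoxic libraries lie together above them, and siControl normoxia replicates 1 and 3 lie highest on both axes.

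SLC6A12, the betaine and GABA transporter (chr12:190077-214570), was all but silent outside 2 libraries. It had 3, 3 and 1 counts in siNOX4 hypoxia and 5, 6 and 5 counts in siControl hypoxia, against 11, 7 and 12 counts in siNOX4 normoxia and 3014, 8 and 2632 counts in siControl normoxia. Replicates 1 and 3 of siControl normoxia, at 178 and 160.3 CPM, were 360 and 324 times replicate 2, which was at 0.495 CPM. In siNOX4 cells the summed counts were 7 in hypoxia and 30 in normoxia, a depth-scaled ratio of 0.189 that rests on few counts and is a description only. The log2 fold change of hypoxia over normoxia in siControl cells was -8.71 (SE 1.48) with all libraries and -0.90 (SE 0.77) without siControl normoxia replicates 1 and 3. The paralog SLC6A13, a GABA and taurine transporter, had at most 1.00 CPM in any library, and the antisense gene AC007406.1, which shares no exonic base with SLC6A12, had 133 counts in all.

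SLC6A6, the sodium-coupled taurine transporter (chr3:14402576-14489349), fell in hypoxia but did not share the high values of siControl normoxia replicates 1 and 3. It was at 91.9, 77.1 and 82.2 CPM in siNOX4 hypoxia and 69.6, 68.0 and 83.3 CPM in siControl hypoxia, against 262, 289 and 297 CPM in siNOX4 normoxia and 179, 305 and 207 CPM in siControl normoxia. Replicates 1 and 3 of siControl normoxia were at 0.588 and 0.681 times replicate 2, the opposite direction from SLC5A3 and SLC6A12, and still above all 6 hypoxic libraries. The log2 fold change of hypoxia was -1.77 (SE 0.08) in siNOX4 cells and -1.64 (SE 0.17) in siControl cells, or -2.05 (SE 0.10) without those 2 libraries. SLC6A6 shares 239 exonic bases with GRIP2 on the other strand, which had 156 counts in all against 34155 counts for SLC6A6.

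SLC38A2, the system A transporter of neutral amino acids (chr12:46358189-46372867), had the highest FPKM of the set in 5 of the 6 hypoxic libraries, AKR1B1 being higher in siControl replicate 2. It was at 549.5, 552 and 539 CPM in siNOX4 hypoxia and 521, 520.5 and 586 CPM in siControl hypoxia, against 906, 879 and 1046 CPM in siNOX4 normoxia and 3302, 896 and 3871 CPM in siControl normoxia. The hypoxic and normoxic libraries did not overlap, and siControl normoxia replicates 1 and 3 were 3.69 and 4.32 times replicate 2. Hypoxia over normoxia gave a log2 fold change of -0.80 (SE 0.07) in siNOX4 cells and -2.31 (SE 0.37) in siControl cells, or -0.72 (SE 0.10) without those 2 libraries.

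AKR1B1, the aldose reductase that opens the sorbitol branch of osmolyte synthesis (chr7:134442350-134459284), was at 180.5, 245 and 183 CPM in siNOX4 hypoxia and 262, 290 and 269 CPM in siControl hypoxia. At 20% oxygen it was at 489, 440 and 478 CPM in siNOX4 cells and 4229, 533 and 3755 CPM in siControl cells. The hypoxic libraries were the 6 lowest, and siControl normoxia replicates 1 and 3 were 7.93 and 7.04 times replicate 2. Its log2 fold change of hypoxia was -1.22 (SE 0.09) in siNOX4 cells and -3.38 (SE 0.53) in siControl cells, or -0.96 (SE 0.12) without those 2 libraries. The neighbouring family member AKR1B10, an aldo-keto reductase of retinal and other aldehydes, had 5.14 and 2.50 CPM in siControl normoxia replicates 1 and 3 and no count in the other 10 libraries. AKR1B15 had 3.01 and 2.32 CPM in the same 2 libraries and at most 0.0636 CPM elsewhere, and whether reads of AKR1B1 were placed on these relatives was not tested.

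NFAT5, the transcription factor of the pathway (chr16:69565094-69704666), had the smallest log2 fold change in siNOX4 cells of the 7 members that passed the filter and were lower in hypoxia. It was at 106, 90.6 and 101 CPM in siNOX4 hypoxia and 85.6, 82.6 and 96.1 CPM in siControl hypoxia, against 153, 156 and 171 CPM in siNOX4 normoxia and 183, 146 and 220 CPM in siControl normoxia. All hypoxic libraries lay below all normoxic ones, and siControl normoxia replicates 1 and 3 were 1.25 and 1.51 times replicate 2. The log2 fold change of hypoxia was -0.71 (SE 0.07) in siNOX4 cells and -1.05 (SE 0.13) in siControl cells, or -0.73 (SE 0.10) without those 2 libraries. Transcript level says nothing of where the protein was or how active it was.

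S100A4, a small calcium-binding protein linked to cell motility (chr1:153543613-153550136), was at 35.4, 56.2 and 49.9 CPM in siNOX4 hypoxia and 59.2, 65.1 and 62.7 CPM in siControl hypoxia. At 20% oxygen it was at 150.2, 131 and 137 CPM in siNOX4 cells and 425, 155 and 371 CPM in siControl cells. For hypoxia the log2 fold change was -1.58 (SE 0.11) in siNOX4 cells and -2.35 (SE 0.29) in siControl cells, or -1.31 (SE 0.14) without siControl normoxia replicates 1 and 3. The overlapping S100A3 on the same strand, with no shared exonic base, ran between 3.40 and 9.58 CPM over the 12 libraries.

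SGK1, the serum- and glucocorticoid-regulated kinase that acts on sodium channels and transporters (chr6:134169246-134318112), was at 79.3, 69.6 and 75.8 CPM in siNOX4 hypoxia and 70.1, 65.7 and 72.5 CPM in siControl hypoxia. At 20% oxygen it was at 155, 147 and 145 CPM in siNOX4 cells and 360, 116 and 736 CPM in siControl cells. Replicate 3 of siControl normoxia was 6.37 times and replicate 1 was 3.11 times replicate 2, so the 2 outlying libraries also differed from each other. The log2 fold change of hypoxia was -1.01 (SE 0.07) in siNOX4 cells and -2.54 (SE 0.44) in siControl cells, or -0.74 (SE 0.09) without those 2 libraries.

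HSPA4L, a chaperone of the Hsp110 family first described as an osmotic stress protein in mouse kidney (chr4:127781821-127840733), was the member that did not fall. It was at 15.0, 12.9 and 17.01 CPM in siNOX4 hypoxia and 11.4, 14.1 and 16.0 CPM in siControl hypoxia, against 11.6, 9.99 and 12.4 CPM in siNOX4 normoxia and 9.27, 13.9 and 9.93 CPM in siControl normoxia. In siNOX4 cells the hypoxic libraries lay above the normoxic ones, with a log2 fold change of 0.39 (SE 0.14), and in siControl cells they overlapped, with 0.33 (SE 0.18), or -0.00 (SE 0.19) without siControl normoxia replicates 1 and 3. Its relative HSPA4, the constitutive Hsp110 family member, ranged between 262 and 294 CPM in hypoxia and between 339 and 597.5 CPM in normoxia.

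**Figure D2:**
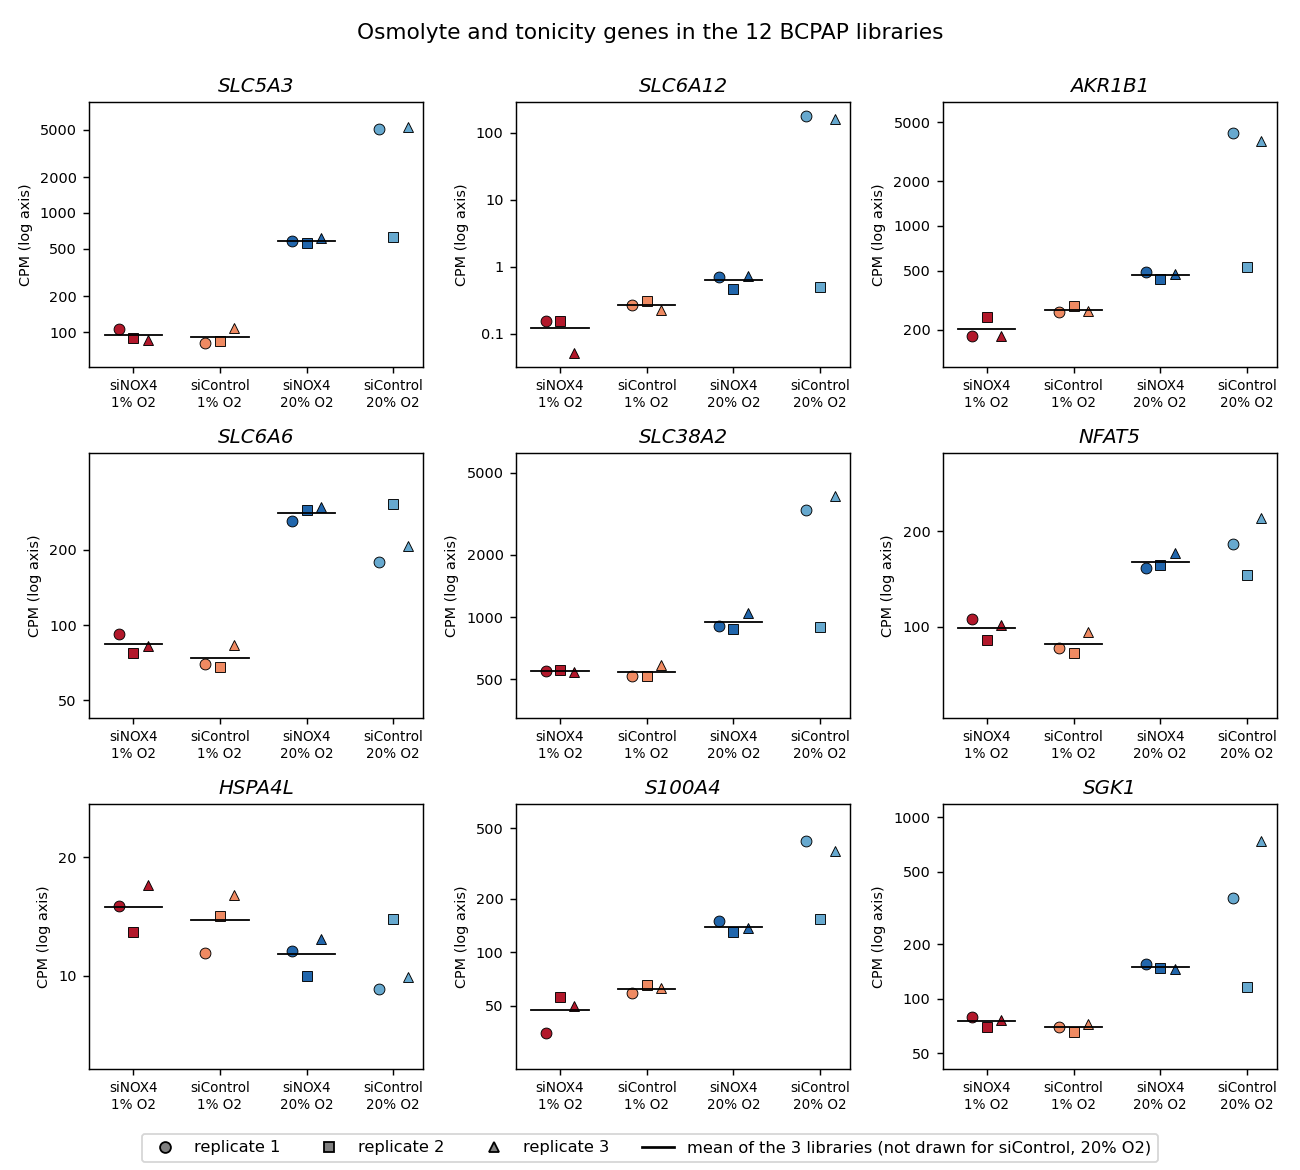
CPM (vertical, log axis) of the 9 genes, one panel each, in the groups siNOX4 1% oxygen, siControl 1% oxygen, siNOX4 20% oxygen and siControl 20% oxygen; points are libraries, shaped by replicate, and lines are means of 3 libraries, not drawn for siControl at 20% oxygen. In 7 panels siControl normoxia replicates 1 and 3 are the highest libraries, while in SLC6A6 and HSPA4L they lie below replicate 2.

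In siNOX4 cells 8 of the 9 members passed the count filter, and 7 of these were lower in hypoxia without overlap and HSPA4L was higher, where 34.7% of all 16907 genes were lower and 37.1% higher without overlap. In siControl cells all 9 passed, and 8 were lower without overlap and HSPA4L overlapped, where 27.7% of 17277 genes were lower and 29.2% higher. SLC6A12 passed in this fit of 12 libraries and not in the fit of 9 that leaves out siControl normoxia. Most of its counts lay in siControl normoxia replicates 1 and 3. The members were picked for this fall, so nothing is read from these counts. Hypoxia reached much of the transcriptome, with 70.5% of genes called in siNOX4 cells, 53.3% in siControl cells and 53% in siControl cells without those 2 libraries. The share without those 2 libraries is over 18624 genes that passed the filter there, a different set from the 17277, and has 1 normoxic control library. The contrasts in siNOX4 and siControl cells compare groups with no library in common. Their fits share libraries for the estimate of spread, so the standard errors and called shares are not independent.

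**Figure D3:**
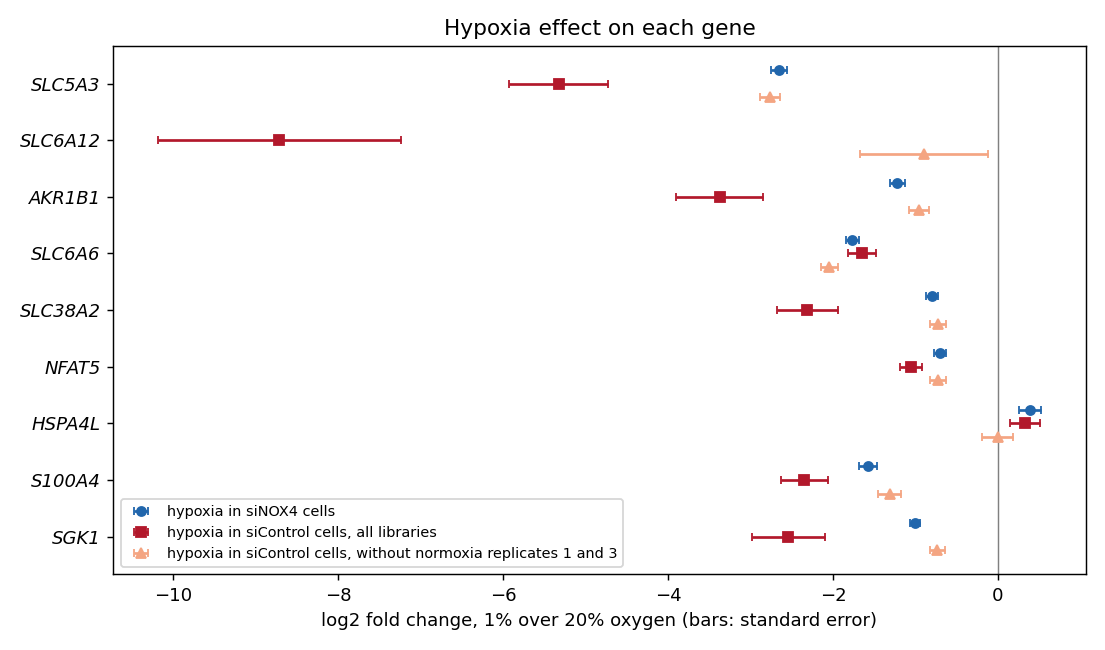
Log2 fold change of 1% over 20% oxygen (horizontal) for each gene (vertical), in siNOX4 cells (circles), in siControl cells with all libraries (squares) and in siControl cells without normoxia replicates 1 and 3 (triangles), with standard errors as bars; SLC6A12 has no circle because it did not pass the filter there. SLC6A12 moves furthest, with -8.71 with all libraries and -0.90 without the 2. The circle lies nearer to the triangle than to the square for SLC5A3, AKR1B1, SLC38A2, NFAT5, S100A4 and SGK1. It lies nearer to the square for SLC6A6 and HSPA4L.

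Of the 9 members, 6 were at least 2-fold above replicate 2 in both siControl normoxia replicates 1 and 3, and none was at least 2-fold below, where 9.50% of 17277 genes were above and 6.74% below. The 9 genes together took 1.40% and 1.42% of all counts in those libraries and 0.26% in replicate 2, against 0.237% to 0.271% in siNOX4 normoxia. In hypoxia they took 0.12% to 0.126% in siNOX4 cells and 0.122% to 0.137% in siControl cells. The siNOX4 against siControl difference at 20% oxygen followed the same 2 libraries. The log2 fold change was -2.65 (SE 0.53) for SLC5A3, -2.60 (SE 0.51) for AKR1B1 and -7.46 (SE 1.36) for SLC6A12 with all libraries. Without replicates 1 and 3 of siControl normoxia these were -0.09 (SE 0.13), -0.18 (SE 0.12) and 0.35 (SE 0.73). Across all genes 15% were called at 20% oxygen with the 12 libraries, and 11.2% lay lower and 11.1% higher without overlap. Against siControl normoxia replicate 2 alone, whose spread is taken from the other groups, 6 of the 9 members had the opposite sign from the fit with all libraries. SLC6A12 was one of them, SGK1 was at 0.37 (SE 0.09) against -1.44 (SE 0.43) with all libraries, SLC38A2 at 0.08 (SE 0.10) against -1.51 (SE 0.36), and NFAT5 at 0.14 (SE 0.10) against -0.19 (SE 0.13). SLC6A6 was at -0.11 (SE 0.11) against 0.29 (SE 0.16), and HSPA4L at -0.30 (SE 0.19) against 0.04 (SE 0.19).

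At 1% oxygen no member of the 8 that passed the filter was called (edgeR quasi-likelihood test over 9 libraries, Benjamini-Hochberg adjusted p under 0.05), where 0.101% of 16907 genes were called. At an unadjusted p under 0.05 stood 4 of the 8 members and 10.4% of all genes, and DESeq2 called 1 member, AKR1B1, and 0.671% of the genes it gave an adjusted p. AKR1B1 had the largest difference, with 180.5, 245 and 183 CPM in siNOX4 cells against 262, 290 and 269 CPM in siControl cells, without overlap. Here the log2 fold change was -0.43 (SE 0.09, edgeR adjusted p = 0.0702, lower in 3 of 3 libraries), DESeq2 gave an adjusted p of 0.0044, and the authors' deposited table gives -0.43 with an adjusted p of 0.00491, where 0.149% of its 30230 genes with an adjusted p were under 0.05. Over the alternatives tried the edgeR or DESeq2 adjusted p of AKR1B1 ranged between 1.45e-07 (no count filter) and 0.9999 (a fit that includes the outlying normoxic libraries). Leaving out siNOX4 hypoxia replicate 2 gave -0.59 with an edgeR adjusted p of 0.00171.

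S100A4 had the next largest difference, -0.40 (SE 0.11, edgeR adjusted p = 0.203), and its siNOX4 libraries also lay below the siControl libraries, where 8.74% of all genes lay lower and 7.93% higher without overlap. Leaving out siNOX4 hypoxia replicate 2 gave -0.55 with an edgeR adjusted p of 0.0464, and using no count filter gave an adjusted p of 5.37e-05. NFAT5 (0.17, SE 0.07, edgeR adjusted p = 0.446) and SLC6A6 (0.18, SE 0.08, edgeR adjusted p = 0.460) were above 0 with overlapping libraries. SLC5A3 (0.04, SE 0.10), SLC38A2 (0.01, SE 0.07), HSPA4L (0.11, SE 0.13) and SGK1 (0.11, SE 0.07) had edgeR adjusted p values between 0.580 and 0.974. SLC6A12, below the filter, had 7 counts in siNOX4 and 16 counts in siControl hypoxia, a depth-scaled ratio of 0.456 (exact 95% interval 0.159 to 1.17, counting error only). These values share the siNOX4 hypoxia libraries with the hypoxia contrast in siNOX4 cells.

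**Figure D4:**
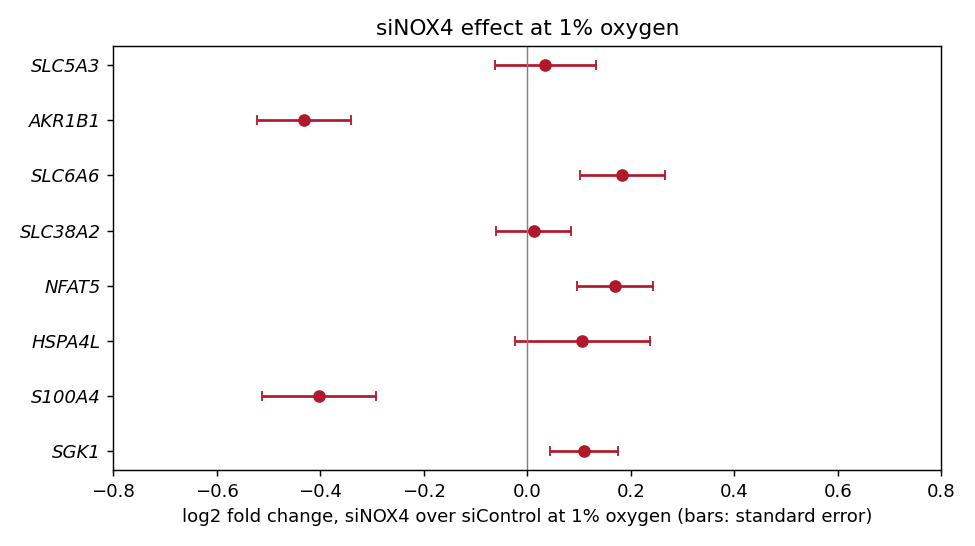
Log2 fold change of siNOX4 over siControl at 1% oxygen (horizontal) for the 8 genes that passed the filter (vertical), with standard errors as bars. AKR1B1 at -0.43 and S100A4 at -0.40 lie furthest from 0 and the other 6 genes lie between 0.01 and 0.18.

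Levels between genes can be set side by side only per length, as FPKM. In siNOX4 hypoxia the order was SLC38A2 (81.5 ± 1.1 FPKM), AKR1B1 (54.5 ± 9.8), S100A4 (45.2 ± 10.2), SLC6A6 (9.98 ± 0.92), SLC5A3 (7.98 ± 0.98), SGK1 (7.38 ± 0.49), NFAT5 (5.95 ± 0.48), HSPA4L (1.27 ± 0.17) and SLC6A12 (0.0223 ± 0.0111, all SD, n = 3). AKR1B1 and S100A4 overlapped, and so did SLC5A3 and SGK1. In siNOX4 normoxia SLC38A2 (142 ± 13), S100A4 (136 ± 10) and AKR1B1 (128 ± 7 FPKM, SD, n = 3) overlapped at the top, and SLC5A3 followed at 50.4 ± 2.7 FPKM, above SLC6A6 at 34.1 ± 2.1 FPKM. In siControl normoxia replicates 1 and 3 AKR1B1 came first at 1135 and 1011 FPKM, then SLC38A2 at 491 and 578 FPKM and SLC5A3 at 433 and 450 FPKM.

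The genes whose log2 CPM ran most like a member's were sought among 10442 protein-coding genes averaging at least 5 CPM, by Pearson's r over the 12 libraries. This is a description of libraries that fall into separate groups by oxygen. The 3 genes found per member were not sought again over the 10 libraries without siControl normoxia replicates 1 and 3, where only their r was computed. For SLC6A12 they were PAX8, the thyroid and kidney transcription factor, NUB1 and CDC42EP4 (r of 0.996, 0.993 and 0.993, or 0.905, 0.836 and 0.868 over 10 libraries). For SLC5A3 they were DAPK1, SYT14 and CAPN5 (r of 0.998, 0.998 and 0.997, or 0.995, 0.994 and 0.992), and for NFAT5 they were KIAA1109, PPARA and LTN1 (r of 0.997, 0.995 and 0.995, or 0.999, 0.994 and 0.995). PAX8 was at 435, 423 and 382 CPM in siNOX4 hypoxia and 416, 441 and 450 CPM in siControl hypoxia, against 551, 457 and 520.5 CPM in siNOX4 normoxia.

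Other genes of the pathway were taken as 7 lists of 87 distinct genes and tested in each contrast. The lists were chosen with earlier results of these data known, which limits what these tests can show. Among 15 other genes known to respond to tonicity, 9 passed the filter in siNOX4 cells and 7 fell and 1 rose in hypoxia (edgeR, adjusted p under 0.05), where 34.6% of all genes fell and 35.9% rose, with a median log2 fold change of -0.94 beside 0.04 over all genes tested. The fall was steepest in the inducible Hsp70 genes HSPA1A and HSPA1B. HSPA1A was at 74.5, 69.2 and 67.2 CPM in siNOX4 hypoxia and 76.2, 79.0 and 70.1 CPM in siControl hypoxia, against 953, 925 and 535 CPM in siNOX4 normoxia and 42.1, 602 and 35.8 CPM in siControl normoxia. Its log2 fold change in siNOX4 cells was -3.53 (SE 0.15, edgeR adjusted p = 1.98e-13), and HSPA1B, a near-identical copy whose reads the counting could split, was at -3.69 (SE 0.16). Unlike SLC5A3 and AKR1B1, both were far lower in siControl normoxia replicates 1 and 3 than in replicate 2. HSPA1A was not called in siControl hypoxia with all libraries (-1.59, edgeR adjusted p = 0.105) and was lower without those 2 libraries (edgeR adjusted p = 1.61e-11), as was HSPA1B (-3.09, SE 0.19), both against siControl normoxia replicate 2 alone, with the spread taken from the other groups.

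The sodium pump subunit ATP1B1 and the Hsp110 gene HSPH1 fell in hypoxia in both siRNA groups, with ATP1B1 at -1.74 (SE 0.08) in siNOX4 cells and -4.48 (SE 0.60) in siControl cells, or -1.80 (SE 0.10) without siControl normoxia replicates 1 and 3. PTGS2, the inducible prostaglandin synthase, and the growth factor VEGFC turned direction with the 2 libraries. PTGS2 was at 6.26, 8.71 and 7.33 CPM in siNOX4 hypoxia and 7.85, 6.87 and 6.96 CPM in siControl hypoxia, against 3.50, 3.53 and 4.35 CPM in siNOX4 normoxia and 337, 2.66 and 359 CPM in siControl normoxia. In siControl cells its log2 fold change of hypoxia was -5.01 (edgeR adjusted p = 0.00149) with all libraries and 1.44 (edgeR adjusted p = 8.27e-05) without replicates 1 and 3 of siControl normoxia, and VEGFC was at -2.45 (edgeR adjusted p = 0.00325) and 0.47 (edgeR adjusted p = 0.0123). The second value of each compares the hypoxic libraries with siControl normoxia replicate 2 alone, which is assumed to vary like the libraries of the other groups. The tonicity list as a whole had 7 lower and 0 higher of 10 passing genes in siControl cells with all libraries (27.6% of all genes lower and 25.7% higher). PTGS2 and VEGFC are among these 7 and turned direction without siControl normoxia replicates 1 and 3.

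**Figure D5:**
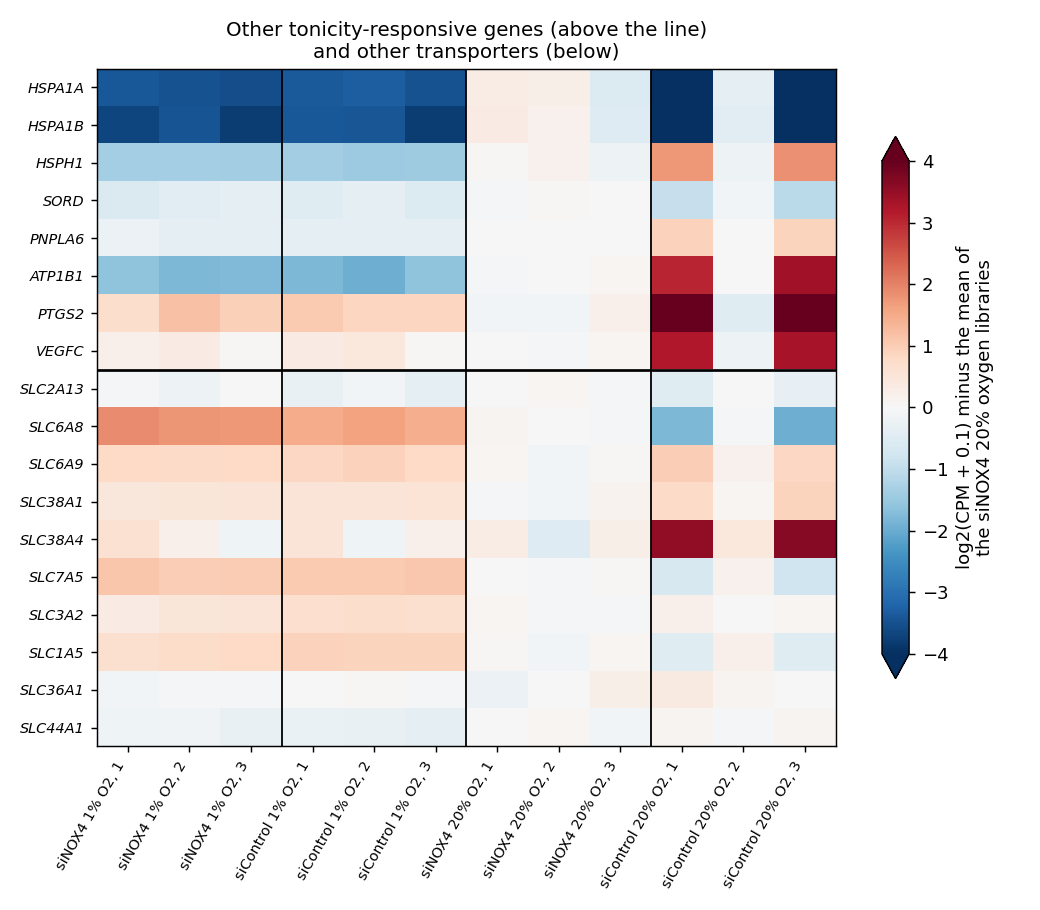
Colour shows log2(CPM + 0.1) minus the mean of the siNOX4 normoxia libraries, capped at 4 on either side, for 8 other tonicity-responsive genes (above the line) and 10 other transporters (below it) averaging at least 1 CPM, with libraries across in the order siNOX4 1%, siControl 1%, siNOX4 20% and siControl 20% oxygen, replicates 1 to 3. The hypoxic columns of both siRNAs look alike, and columns 1 and 3 of siControl normoxia stand out in both directions.

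Of 12 other osmolyte and amino acid transporters 11 passed the filter in siNOX4 cells, and 7 rose and 1 fell in hypoxia, where 35.9% of all genes rose and 34.6% fell, with a median log2 fold change of 0.47 beside 0.04 over all genes. The creatine transporter SLC6A8 was at 193, 176 and 174 CPM in siNOX4 hypoxia and 145.5, 158 and 144 CPM in siControl hypoxia, against 56.4, 51.4 and 49.0 CPM in siNOX4 normoxia and 15.0, 50.8 and 13.3 CPM in siControl normoxia. Its log2 fold change in siNOX4 cells was 1.78 (SE 0.07, edgeR adjusted p = 7.35e-14), and the large amino acid transporter SLC7A5 rose by 1.02 (SE 0.06, edgeR adjusted p = 2.22e-11). In siControl cells 4 of 12 rose and 2 fell, where 25.7% of all genes rose and 27.6% fell, or 6 rose and 1 fell without siControl normoxia replicates 1 and 3, where 53% of all genes were called in either direction.

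In the next 5 lists the counts for siNOX4 cells stand beside 35.9% of all genes higher and 34.6% lower in hypoxia, 70.5% in all. Among 16 genes of osmolyte metabolism 13 passed, and 2 rose and 7 fell in hypoxia in siNOX4 cells. The glycerophosphocholine phosphodiesterase GPCPD1 was at 13.0, 10.6 and 13.0 CPM in siNOX4 hypoxia, against 114, 137 and 112 CPM in siNOX4 normoxia (log2 fold change -3.32, SE 0.11, edgeR adjusted p = 3.76e-15), and the inositol monophosphatase IMPA2 fell by 1.78 (SE 0.09, edgeR adjusted p = 3.81e-12). Of 18 volume and ion transport genes 17 passed, with 5 up and 7 down, among them the kinase STK39 at -1.44 (SE 0.09). Of 13 NFAT family and NFAT5 regulator genes 11 passed, with 5 up and 6 down, among them PARP1 at 0.97 (SE 0.06) and the helicase DHX9 at 1.00 (SE 0.06). Of 7 glucocorticoid-responsive genes 6 passed, with 0 up and 4 down, among them PER1 at -1.79 (SE 0.10) and KLF9 at -1.58 (SE 0.09). All 8 amino acid response genes passed, with 5 up and 3 down, among them the glutathione-degrading enzyme CHAC1 at 5.29 (SE 0.13) and SESN2 at 2.22 (SE 0.08).

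In siControl cells the same 5 lists had 2 up and 4 down, 2 up and 5 down, 3 up and 4 down, 2 up and 2 down, and 5 up and 1 down in hypoxia, where 25.7% of all genes were up and 27.6% down. Without siControl normoxia replicates 1 and 3 they had 2 up and 5 down, 2 up and 5 down, 5 up and 5 down, 0 up and 4 down, and 5 up and 2 down, where 53% of all genes were called. At 20% oxygen siNOX4 against siControl called 17 of the 75 genes of all 7 lists that passed, 16 of them lower (11% of all genes were lower and 3.97% higher), and none of 76 without siControl normoxia replicates 1 and 3. At 1% oxygen siNOX4 against siControl called none of 73 by edgeR, with 16 at an unadjusted p under 0.05 (21.9%, against 10.4% of all genes), and DESeq2 called SLC3A2 and SLC6A8. The test of whether hypoxia acted differently under the 2 siRNAs called 0 of 17277 genes by edgeR, with 3609 at an unadjusted p under 0.05 and 59 called by DESeq2.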

How the data were processed

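RNA was extracted with Trizol and made into libraries with an Illumina TruSeq kit, per the labels' protocols, which do not describe a strand-marking step. The authors deposited whole read counts per gene, FPKM values, and, for siNOX4 against siControl at 1% oxygen, a log2 fold change and p-values of their own. The submitters' processing notes name Bowtie 0.12.2 and the mouse builds mm8 and mm9 without a role. No source used here gives the aligner settings for these human libraries. Coordinates in the deposited table are those of GENCODE for GRCh38.

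The members and all gene lists were chosen with earlier results of these data known. CPM values were scaled by TMM over the 12 libraries. Tests used the edgeR 4.0.16 quasi-likelihood test in R 4.3.3 on the deposited counts, with its default filter on low counts and Benjamini-Hochberg adjustment over all genes that passed (threshold 0.05). Contrasts without the siControl normoxia group came from a fit of 9 libraries (16907 genes, 6 residual degrees of freedom), because that group inflates the spread, and the others from 12 libraries (17277 genes, 8 residual degrees of freedom). DESeq2 1.42.0, other scalings, other filters, a replicate block and leaving out libraries were tried as alternatives. The scripts were tested on simulated data. Named genes were the 9 members, NOX4, up to 2 called genes per list and contrast by smallest p with the most abundant uncalled gene, the 3 genes most like SLC6A12, SLC5A3 and NFAT5, and overlapping or related genes. Other genes are named where they belong to a count given, and were then chosen after their values were seen. Some genes that the rule selects are not reported here by name.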

Additional observations from a re-analysis of the deposited data

How the results depend on the processing

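For siNOX4 against siControl at 1% oxygen the count of called genes was 17, against 179 with no count filter, 68 with DESeq2, 0 in a fit of all 12 libraries and 8 when only the compared groups were fitted, and 2 to 29 with 1 library left out. For siNOX4 against siControl at 20% oxygen it was 2593, against 4696 with no filter, 4076 with DESeq2, 0 when only the compared groups were fitted and 9 without siControl normoxia replicates 1 and 3, and 2 to 9866 with 1 library left out, the highest without siControl normoxia replicate 2. For the interaction it was 0, against 2107 with no filter, 59 with DESeq2 and 2 without siControl normoxia replicates 1 and 3, and 0 to 7696 with 1 library left out, the highest again without siControl normoxia replicate 2. The causes were not tested. The counts for hypoxia in siNOX4 cells (11920) and in siControl cells (9204) stayed within 1.5 times under every alternative run. Upper-quartile scaling moved the median log2 fold change of all genes in siControl hypoxia to 0.11, against -0.01, and turned the balance of called genes there to 5287 higher and 3961 lower, against 4438 higher and 4766 lower.

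Over 18 same-number pairs of libraries the correlation of deviations from group means lay between -0.058 and 0.15, with 2 over 0.1. Pairs with different numbers were not computed for comparison, so this check cannot tell whether replicate numbers pair the libraries. With the replicate number as a block, 19 genes were called at 1% oxygen, 11868 and 9056 for hypoxia in siNOX4 and siControl cells, 2617 at 20% oxygen and 0 for the interaction. Depth limits SLC6A12 and NOX4, which had under 20 counts in most libraries.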
